A study of Mus musculus with 6 samples.

Results

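The stefin and cystatin genes of bone marrow neutrophils were described in libraries labelled WT and LRP5-null. The set held 10 genes chosen by symbol, Stfa1, Stfa2, Stfa2l1, Stfa3, BC100530, Gm5483 and BC117090 of the stefin A cluster, Cstb (stefin B), Cst3 (cystatin C) and Cst7 (cystatin F), among 52636 rows of the expression table. All 10 were listed, and 8 of them were among the 9775 genes that averaged 1 TPM or more and were tested. TPM is a measure of transcript abundance from which gene length has been taken out, so that it can be compared between genes. BC117090 and Cst7 were below that limit and are given by level alone.

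RNA was sequenced from primary neutrophils of C57BL/6N mice aged 10 weeks, in 3 WT and 3 LRP5-null libraries. By their genotype label, the LRP5-null mice were LRP5f/f/Lyz2Cre+, that is, they carried floxed alleles of LRP5, a lipoprotein receptor-related protein and Wnt coreceptor, and a Cre recombinase driven by Lyz2, the lysozyme gene of granulocytes, monocytes and macrophages. The WT libraries carry the label WT alone. The labels number the libraries and do not say that each came from a separate mouse, so the tests measure the spread between these libraries.

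Stefins are small inhibitors of papain-like cysteine proteases such as cathepsins B, H, L and S. Stefins A and B lack a signal peptide and act inside the cell, whereas cystatins C and F are made for secretion or for the endosomes and lysosomes. In the mouse, the stefin A gene has been duplicated into a cluster of close copies on chromosome 16, and transcripts of these copies are abundant in neutrophils and their precursors.

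The labels and the libraries were first checked. Lrp5 was 1.12, 1.31 and 1.42 TPM in the WT libraries and 1.68, 1.77 and 2.07 TPM in the LRP5-null libraries. The LRP5-null label thus did not go with less Lrp5 RNA (log2 fold change 0.31, standard error 0.09, adjusted p = 0.136). These levels were low, and a TPM for the whole gene does not show whether the floxed part was deleted. Lyz2 was 25963 ± 1039 TPM in WT and 13792 ± 375 TPM in LRP5-null libraries (SD, n = 3, limma adjusted p = 0.00351). The LRP5-null label names a Cre driven by Lyz2, and the WT label names none. Carrying this Cre and lacking LRP5 therefore cannot be told apart, for Lyz2 or in any comparison below. All directions below are of the libraries labelled LRP5-null against those labelled WT. The read summary lists 249841492 to 340580330 reads per library. Ribosomal RNA took 1.20% of the reads of WT replicate 1 and 1.30% of those of WT replicate 2. WT replicate 3, at 3.30%, stood with the LRP5-null libraries (2.69% to 2.98%) by this measure, and results are given with and without it. All 11 defining genes of neutrophils were present, at a summed level of 393569 to 438791 TPM in WT and 422837 to 443643 TPM in LRP5-null libraries. The summed markers of T and NK cells (11.8 to 13.9 TPM in WT, 16.1 to 17.8 TPM in LRP5-null, 12 genes listed), of eosinophils, basophils and mast cells (19.9 to 23.7 and 24.6 to 26.3 TPM, 11 genes) and of megakaryocytes and platelets (3.85 to 5.58 and 5.91 to 6.93 TPM, 6 genes) were higher in every LRP5-null library, and none of these genes was at 0 in all libraries. Of these lists, only 2, 5 and 2 genes averaged 1 TPM or more. The sums overlapped between the groups for monocytes, macrophages and dendritic cells (151 to 176 TPM in WT, 160 to 182 TPM in LRP5-null). So did those of B cells (13.5 to 15.7 and 13.7 to 14.6 TPM) and erythroid cells (49.1 to 58.1 and 43.9 to 55.4 TPM). Of 22 genes of immature neutrophils, 0 were called, 9 were higher without overlap in LRP5-null libraries and 1 lower, with a median log2 fold change of 0.12 and summed levels of 73843 to 81304 TPM in WT and 76873 to 81011 TPM in LRP5-null. Of 26 genes of mature neutrophils, 1 was called (Cxcl2, lower), 2 were higher without overlap and 10 lower, with a median of −0.10 and summed levels of 46028 to 51247 and 44800 to 46476 TPM. Over all 9775 genes tested, 0.532% were called and 29.7% did not overlap between the groups (1703 higher and 1202 lower). The part of these marker genes in the results below was not tested.

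All 7 stefin A members lay between 36156897 and 36455478 on chromosome 16 of the mouse genome NCBIM37 (mm9), each with 3 exons in the GENCODE M1 annotation, and their annotated transcripts were 387 to 619 bases long. Stfa2l1 (36156897 to 36162034), Gm5483 (36184298 to 36188197) and Stfa1 (36277213 to 36285457) lay on the plus strand. BC117090 (36321751 to 36334418), BC100530 (36359468 to 36367834), Stfa2 (36404037 to 36421006) and Stfa3 (36450623 to 36455478) lay on the minus strand. Cstb lay outside the cluster at chr10:77888415-77890364 on the plus strand. Cst3, at chr2:148697458-148701428 on the minus strand, and Cst7, at chr2:150396151-150404680 on the plus strand, shared a chromosome. In M1 BC117090 has the name Gm1975, and in RefSeq BC100530 and Gm5483 have the names Cstdc5 and Cstdc4.

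The likeness of the copies can bear on the levels given for them, so a stretch of the coding exons is shown first. It spans the codons of the first inhibitory hairpin loop, the part of a stefin that enters the active site of the protease, with 30 bases before and the rest after its start. Capitals mark bases that differ from Stfa1. The stretch covers coding bases 106 to 171 of Stfa1, BC100530 and Gm5483 and 124 to 189 of Stfa2l1 and Stfa3, and was read from the NCBIM37 transcripts, 5′ to 3′.
Stfa1: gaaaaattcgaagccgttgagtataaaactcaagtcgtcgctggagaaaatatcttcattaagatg
BC100530: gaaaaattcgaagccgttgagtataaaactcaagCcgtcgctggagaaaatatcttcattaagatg
Gm5483: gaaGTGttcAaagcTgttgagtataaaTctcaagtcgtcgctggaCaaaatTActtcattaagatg
Stfa2l1: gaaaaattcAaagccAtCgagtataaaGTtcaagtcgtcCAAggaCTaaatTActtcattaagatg
Stfa3: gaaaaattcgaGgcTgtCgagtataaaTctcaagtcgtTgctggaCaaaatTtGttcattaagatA

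In this stretch of 66 bases, BC100530 differed from Stfa1 at 1 base, Gm5483 and Stfa3 at 9 bases and Stfa2l1 at 12 bases. BC117090 had the same letters as BC100530, Stfa2 the same as Stfa2l1, and 2010005H15Rik, another gene of the cluster, the same as Gm5483. The loop codons themselves read caagtcgtcgctgga in both Stfa1 and Gm5483, and caagtcgtccaagga in Stfa2 and Stfa2l1.

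Over the whole coding sequence, the 21 pairs of stefin A members were 77.9% to 98.0% identical (median 81.7%). The closest pairs were Stfa1 and BC100530 at 98.0%, Stfa2 and Stfa2l1 at 96.5%, and BC100530 and BC117090 at 96.2%. Gm5483 was 96.9% identical to 2010005H15Rik. Against Cstb, Cst3 and Cst7 the stefin A members were 52.7% to 60.9% identical.

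**Figure D1:**
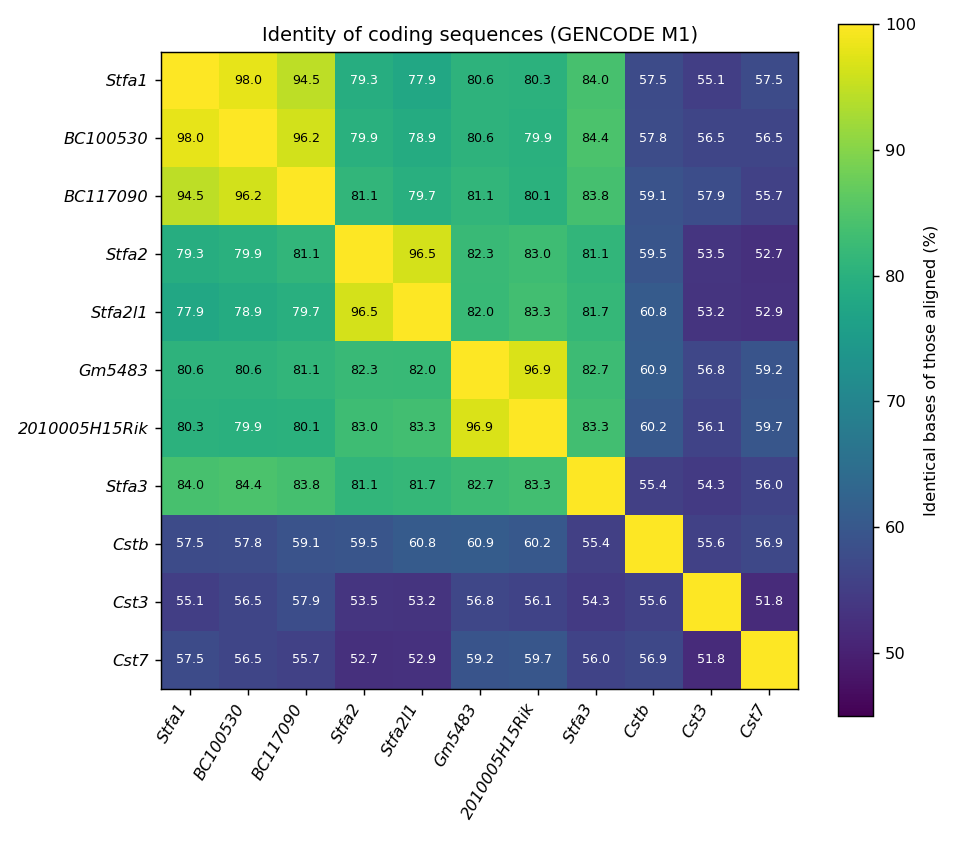
Identity of coding sequences for each pair of 10 members and 2010005H15Rik, as the percentage of aligned bases that are the same (colour and printed value). 3 blocks of close copies stand out, Stfa1 with BC100530 and BC117090, Stfa2 with Stfa2l1, and Gm5483 with 2010005H15Rik, while Cstb, Cst3 and Cst7 stay at 60.9% or below against the stefin A members.

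The read summary gives a read length of 94 bases. Of all stretches of that length in a transcript, the share found letter for letter in another gene's transcript was 15.3% for BC117090, 15.2% for BC100530, 12.8% for Gm5483, 10.1% for Stfa1, 1.2% for Stfa2l1 and 1.1% for Stfa2. It was 0% for Stfa3, Cstb, Cst3 and Cst7. Only protein-coding transcripts were searched, so matches elsewhere in the genome were not looked for. At 75 bases, the length that the methods name, the share was 22.4% for BC100530, 22.1% for Gm5483, 20.4% for BC117090, 15.9% for Stfa1, 7.9% for Stfa2l1 and 5.8% for Stfa2. At 31 bases, it was 62.3% for Stfa1, 43.2% for Stfa2l1 and 27.7% for Stfa2 and was still 0% for Stfa3. How the authors' counting treated reads that match several genes is not given in the sources used here, so the split of a level between close copies is uncertain, and their sums are given beside the single genes.

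The level of each gene was taken from all 6 libraries. Stfa2l1 was the most abundant member, with a mean of 802 TPM and rank 103 among all genes listed, and Gm5483 followed with 452 TPM (rank 187) and Cst3 with 335 TPM (rank 251). Cstb ranged from 91.0 to 110 TPM (rank 974), and Stfa1 had a mean of 82.7, Stfa3 of 76.7, Stfa2 of 46.3 and BC100530 of 37.6 TPM. BC117090 and Cst7 had means of 0.705 and 0.506 TPM. The lowest library of Stfa2l1 was above the highest of Gm5483, the lowest of Gm5483 above the highest of Cst3, and the lowest of Cst3 above the highest of Cstb. The ranges of each pair of neighbours from Cstb down to BC100530 overlapped, as did those of BC117090 and Cst7, so the order of these neighbours is not resolved. Stfa1 and Stfa2, though not neighbours, also overlapped slightly, with 67.5 TPM in the lowest library of Stfa1 and 68.4 TPM in the highest of Stfa2. Other genes farther apart in the order were separate. Every library of Cstb was above every library of Stfa3, and every library of Stfa1 and Stfa3 above every library of BC100530.

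In the comparison of LRP5-null with WT libraries, 0 of the 8 members tested had an adjusted p under 0.05 in limma, against 0.532% of all genes tested. At an unadjusted p under 0.05 there were 5 of 8 members, 4 of them lower (Stfa2, Stfa2l1, BC100530 and Gm5483) and 1 higher (Cstb), against 23.5% of all genes. In 3 of 8 members the groups did not overlap (Stfa2 and BC100530 lower, Cstb higher), against 29.7% of all genes. The median log2 fold change was −0.26 over the 8 members and 0.04 over all genes tested. A difference in bulk RNA cannot tell fewer cells of a type from less RNA per cell.

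**Figure D2:**
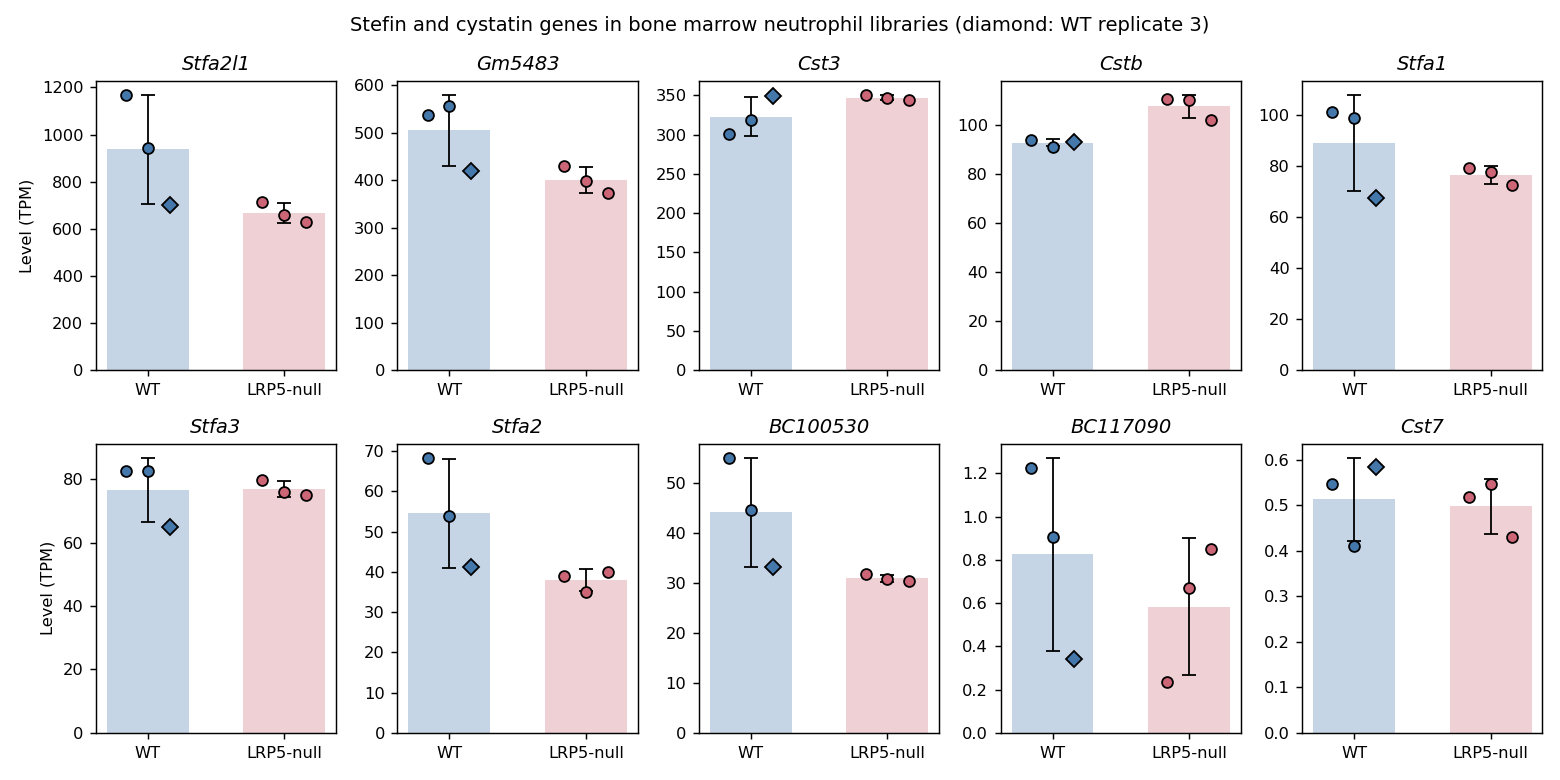
Level in TPM (y axis, from 0) of each of 10 genes in WT and LRP5-null libraries, with a point per library, a diamond for WT replicate 3, bars at the mean and error bars of 1 SD (n = 3). In Stfa2l1, Gm5483, Stfa1, Stfa3, Stfa2, BC100530 and BC117090 the diamond is the lowest WT point, and the WT points spread more widely than the LRP5-null points.

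Stfa2l1, the most abundant stefin A copy, was 1166, 942 and 702 TPM in WT replicates 1 to 3 and 714, 658 and 629 TPM in LRP5-null replicates 1 to 3. WT replicates 1 and 2 were high, WT replicate 3 was within the LRP5-null range, and the groups overlapped. The means were 937 ± 232 and 667 ± 43.3 TPM (SD, n = 3), a log2 fold change of −0.46 (standard error 0.17, 95% interval −0.85 to −0.07, adjusted p = 0.169). Stfa2, its close copy, was 68.4, 54.0 and 41.3 TPM in WT and 39.1, 34.9 and 40.0 TPM in LRP5-null libraries. Every WT value of Stfa2 was above every LRP5-null value, the closest being 41.3 and 40.0 TPM. Its log2 fold change was −0.48 (standard error 0.17, adjusted p = 0.160). The sum of this pair, which depends less on how reads were split between them, was 1234, 996 and 744 TPM in WT and 753, 693 and 669 TPM in LRP5-null libraries. As in Stfa2l1 alone, WT replicate 3 lay within the LRP5-null range.

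Gm5483, the copy of second rank in level, was 538, 557 and 419 TPM in WT and 429, 397 and 374 TPM in LRP5-null libraries. WT replicate 3 was below LRP5-null replicate 1, and the groups overlapped. The log2 fold change was −0.33 (standard error 0.12, 95% interval −0.60 to −0.05, adjusted p = 0.163). With the near-identical 2010005H15Rik added, the sum was 542, 563 and 422 TPM in WT and 432, 400 and 377 TPM in LRP5-null libraries, in the same order.

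Stfa1 was 101, 98.7 and 67.5 TPM in WT and 79.3, 77.5 and 72.4 TPM in LRP5-null libraries. WT replicate 3 was the lowest of all 6, and the groups overlapped (log2 fold change −0.20, standard error 0.15, adjusted p = 0.455). BC100530 was 55.0, 44.6 and 33.2 TPM in WT and 31.8, 30.8 and 30.4 TPM in LRP5-null libraries. Its groups did not overlap, with 33.2 and 31.8 TPM the closest values (log2 fold change −0.47, standard error 0.16, adjusted p = 0.160). BC117090 was 1.23, 0.907 and 0.342 TPM in WT and 0.233, 0.668 and 0.851 TPM in LRP5-null libraries and spread over a similar range in both groups. These 3 copies are close to each other in sequence, and their sum was 157, 144 and 101 TPM in WT and 111, 109 and 104 TPM in LRP5-null libraries. In the sum WT replicate 3 was below all LRP5-null libraries.

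Stfa3 was the only stefin A member that shared no stretch of read length with another gene's protein-coding transcript. Its levels were 82.5, 82.5 and 64.9 TPM in WT and 79.7, 76.0 and 74.9 TPM in LRP5-null libraries. WT replicate 3 was again the lowest of all 6, and the LRP5-null values lay between it and the other WT values. The means were 76.7 ± 10.2 and 76.8 ± 2.52 TPM (SD, n = 3), a log2 fold change of 0.01 with a 95% interval of −0.23 to 0.25 (adjusted p = 0.957).

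The copies held unequal shares of the stefin A level. The summed level of the 7 members was 2013, 1781 and 1329 TPM in WT and 1373, 1275 and 1221 TPM in LRP5-null libraries. Stfa2l1 gave 57.9%, 52.9% and 52.9% of the sum in WT and 52.0%, 51.6% and 51.5% in LRP5-null libraries, and was lower in every LRP5-null library. Stfa3 gave 4.10%, 4.63% and 4.89% in WT and 5.80%, 5.96% and 6.13% in LRP5-null libraries, and was higher in every one of them. Stfa1 was also higher in all of them, at 5.03%, 5.55% and 5.08% in WT and 5.77%, 6.08% and 5.93% in LRP5-null libraries. BC100530 was lower, at 2.73%, 2.51% and 2.50% in WT and 2.32%, 2.41% and 2.49% in LRP5-null libraries, where the closest values nearly touched. The shares of the other 3 genes overlapped between the groups. Shares of 1 sum move against each other, and these were computed after the levels had been seen, so they are given as a description.

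**Figure D3:**
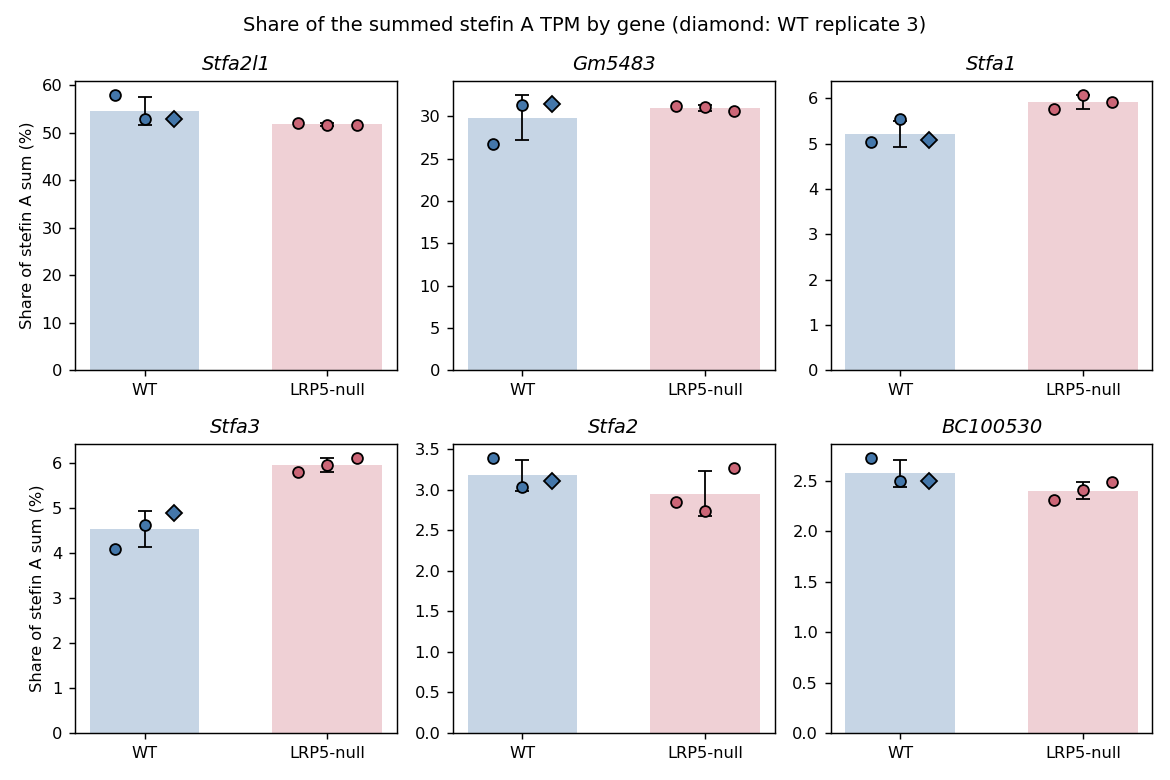
Share of the summed stefin A TPM in percent (y axis, from 0, scaled for each gene) held by 6 of the 7 genes in WT and LRP5-null libraries, with a point per library, a diamond for WT replicate 3, bars at the mean and error bars of 1 SD (n = 3). The Stfa3 share is above 5.8% in all LRP5-null libraries and below 4.9% in all WT libraries, including WT replicate 3.

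The ratio of Gm5483 to Stfa3 was 6.52, 6.76 and 6.45 in WT and 5.39, 5.23 and 4.99 in LRP5-null libraries. That of Stfa2l1 to Stfa3 was 14.1, 11.4 and 10.8 in WT and 8.96, 8.66 and 8.40 in LRP5-null libraries. In both ratios WT replicate 3 lay with the WT libraries, unlike in the levels of the same genes, and the groups did not overlap. Both divide by Stfa3, so they are not separate observations. The ratio of Stfa1 to Stfa3 was also lower in every LRP5-null library, with 1.04 and 1.02 the closest values. That of Stfa2l1 to Gm5483 overlapped, with 1.677 in WT replicate 3 and 1.684 in LRP5-null replicate 3. The ratio of Stfa2l1 to its close copy Stfa2 was 17.0, 17.5 and 17.0 in WT and 18.3, 18.8 and 15.7 in LRP5-null libraries and overlapped. Between Stfa1 and BC100530, the closest pair in coding sequence, the ratio was 1.84, 2.21 and 2.03 in WT and 2.49, 2.52 and 2.38 in LRP5-null libraries. These ratios were also computed after the levels had been seen, and no test was made on them.

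Stefin B and the cystatins lie outside the cluster. Cstb, the stefin B found in most cell types, was 93.9, 91.0 and 92.9 TPM in WT and 110, 110 and 102 TPM in LRP5-null libraries. All LRP5-null values were above all WT values, with WT replicate 3 between the other WT libraries. The means were 92.6 ± 1.47 and 107 ± 4.67 TPM (SD, n = 3), a log2 fold change of 0.21 (standard error 0.06, 95% interval 0.06 to 0.36, adjusted p = 0.137). Cst3, a secreted inhibitor made by most cells, was 301, 318 and 349 TPM in WT and 351, 347 and 344 TPM in LRP5-null libraries. WT replicate 3 lay within the LRP5-null range, the other WT libraries below it (log2 fold change 0.11, standard error 0.07, 95% interval −0.06 to 0.27, adjusted p = 0.392). Cst7, an inhibitor best known from cytotoxic lymphocytes and other leukocytes, was 0.547, 0.410 and 0.584 TPM in WT and 0.518, 0.546 and 0.430 TPM in LRP5-null libraries. Its groups overlapped over almost their whole range.

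For the level of a single gene, an exact permutation test of 3 libraries against 3 cannot give a two-sided p below 0.1. Stfa2, BC100530 and Cstb reached that value.

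Of the 6 libraries left out in turn, WT replicate 3 was the only one without which any member was called. WT replicate 3 was the lowest WT library in 7 of 7 stefin A members, and WT replicates 1 and 2 were both above every LRP5-null library in 7 of 7. These close copies may share reads and so do not count as separate observations. BC117090, below the limit for testing, is among them, with 0.907 TPM in WT replicate 2 against 0.851 TPM in LRP5-null replicate 3. The share of all genes with this order of libraries was not computed. Without WT replicate 3, 5 of 8 members had an adjusted p under 0.05, against 19.6% of all genes, and all 5 were lower. The log2 fold changes were then −0.67 for Stfa2 (adjusted p = 0.0186), −0.66 for BC100530 (adjusted p = 0.0136), −0.65 for Stfa2l1 (adjusted p = 0.0157), −0.45 for Gm5483 (adjusted p = 0.0155) and −0.38 for Stfa1 (adjusted p = 0.0175). Stfa3 was at −0.10 (adjusted p = 0.242) and Cstb stayed at 0.21 (adjusted p = 0.0578). Leaving out WT replicate 1 made the differences smaller, at −0.31 for Stfa2 (adjusted p = 0.275), −0.30 for BC100530 (adjusted p = 0.277), −0.29 for Stfa2l1 (adjusted p = 0.301), −0.27 for Gm5483 (adjusted p = 0.317) and −0.10 for Stfa1 (adjusted p = 0.776). Without WT replicate 2, Stfa1 was at −0.11 (adjusted p = 0.753). Against WT replicate 3 alone, where the spread comes from the 3 LRP5-null libraries and the lone WT library is assumed to vary like them, the LRP5-null libraries gave −0.12 for Stfa2, −0.09 for BC100530, −0.08 for Stfa2l1, −0.07 for Gm5483, 0.18 for Stfa1 and 0.24 for Stfa3, with adjusted p-values of 0.237 to 0.720, and 0.21 for Cstb (adjusted p = 0.284).

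**Figure D4:**
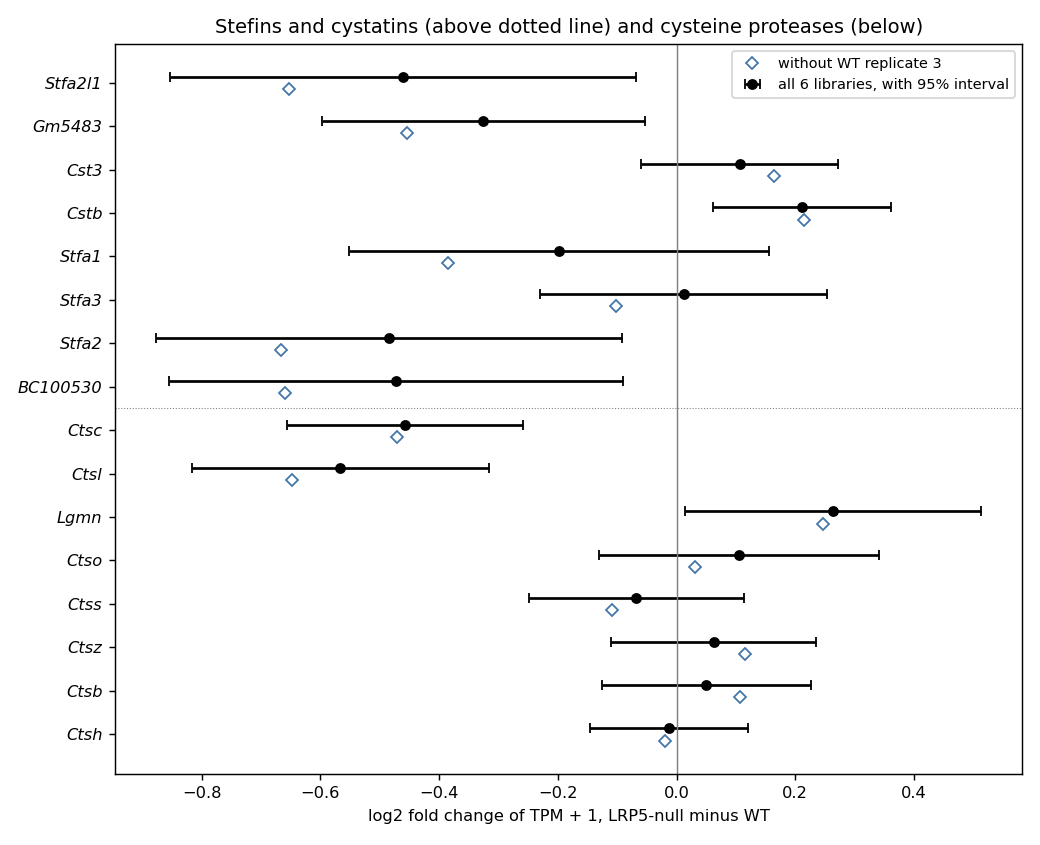
Log2 fold change of TPM + 1, LRP5-null minus WT (x axis), for 8 stefin and cystatin genes and 8 cysteine proteases, with the 95% interval from limma over 6 libraries (black) and the value without WT replicate 3 (open diamonds). Without that library, Stfa2l1, Gm5483, Stfa1, Stfa2 and BC100530 lie farther below 0, while Cstb, Ctsc and Ctsh hardly move.

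The ribosomal share of reads moved with the stefin A level. The libraries with summed levels of 2013 and 1781 TPM had 1.20% and 1.30% of ribosomal reads, and the other 4 had 1221 to 1373 TPM and 2.69% to 3.30%. Within the 4 libraries of higher share there was 1 WT library, and within the others no LRP5-null library, so no comparison could be made there other than the one against WT replicate 3. With the ribosomal share as a covariate, the log2 fold change was −0.23 for Stfa2 (adjusted p = 0.359), −0.21 for BC100530 (adjusted p = 0.305), −0.19 for Stfa2l1 (adjusted p = 0.350), −0.14 for Gm5483 (adjusted p = 0.302), 0.06 for Stfa1 (adjusted p = 0.626) and 0.17 for Stfa3 (adjusted p = 0.208). That for Cstb was 0.21 (adjusted p = 0.188). Intronic reads were 7.78% to 9.0% in WT and 10.6% to 11.2% in LRP5-null libraries, and the coverage bias at the 3′ end of transcripts was 0.194 and 0.231 in WT replicates 1 and 2 and 0.242 to 0.257 in the other libraries. The bias at the 5′ end was 0.571 in WT replicate 1 and 0.502 to 0.521 in the others. The part of these measures in the stefin A values was not tested.

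**Figure D5:**
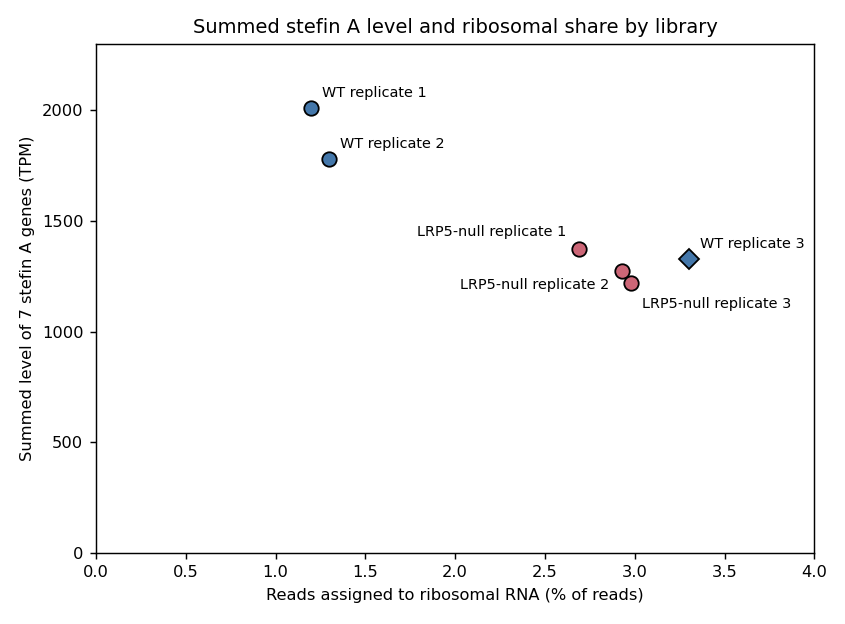
Summed level of the 7 stefin A genes in TPM (y axis, from 0) against the percentage of reads assigned to ribosomal RNA (x axis), with a point per library and a diamond for WT replicate 3. WT replicates 1 and 2 lie apart at upper left, at 2013 and 1781 TPM, and WT replicate 3, at 1329 TPM, lies beside the LRP5-null libraries.

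Other genes of the superfamily were then looked up. Of 30 further stefin, cystatin, kininogen and fetuin symbols, 19 were in the table, 15 of these were listed at 0 in every library (Csta1 and Gm4758 of the same cluster among them), and 2 were tested. Gm5416, a stefin A copy, was 9.95, 11.0 and 6.60 TPM in WT and 8.75, 8.69 and 7.93 TPM in LRP5-null libraries, with WT replicate 3 the lowest (log2 fold change −0.08, adjusted p = 0.794). Like Stfa3, it shared no stretch of 94 bases with another gene's protein-coding transcript. 2010005H15Rik, the near-copy of Gm5483, was 3.68, 6.11 and 3.18 TPM in WT and 3.23, 2.11 and 2.78 TPM in LRP5-null libraries, and its groups overlapped (log2 fold change −0.50, adjusted p = 0.206).

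The cysteine proteases that stefins and cystatins inhibit were examined next. Of 11 cysteine cathepsins and legumain, 8 were tested and 0 had an adjusted p under 0.05 (0.532% of all genes). At an unadjusted p under 0.05 there were 1 higher and 2 lower of the 8, against 23.5% of all genes. Their median log2 fold change was 0.02. Ctsl (cathepsin L, a lysosomal endopeptidase inhibited by stefins) was 98.9, 79.3 and 74.6 TPM in WT and 55.7, 56.6 and 56.2 TPM in LRP5-null libraries. The groups were well apart, and WT replicate 3 lay with the WT libraries (log2 fold change −0.57, standard error 0.11, 95% interval −0.82 to −0.32, adjusted p = 0.0675). Ctsc (cathepsin C, which activates the serine proteases of neutrophil granules) was 15.4, 13.2 and 13.8 TPM in WT and 10.7, 9.71 and 9.73 TPM in LRP5-null libraries. Here too every WT value was above every LRP5-null value (log2 fold change −0.46, standard error 0.09, 95% interval −0.66 to −0.26, adjusted p = 0.0651). Without WT replicate 3, these 2 of 8 passed the test, against 19.6% of all genes, with Ctsl at −0.65 (adjusted p = 0.0144) and Ctsc at −0.47 (adjusted p = 0.0221). Against WT replicate 3 alone, with the spread again from the LRP5-null libraries only, they were at −0.40 (adjusted p = 0.130) and −0.43 (adjusted p = 0.183).

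Legumain (Lgmn), a lysosomal protease inhibited by cystatin C and not by stefins, was 2.06, 1.51 and 1.67 TPM in WT and 2.15, 2.13 and 2.60 TPM in LRP5-null libraries (log2 fold change 0.26, adjusted p = 0.195). Its groups did not overlap, although the levels were low. Ctsh, an aminopeptidase and the most abundant of the 8 proteases tested, was 152 ± 1.54 and 151 ± 1.62 TPM (SD, n = 3), a log2 fold change of −0.01 with a 95% interval of −0.15 to 0.12. The log2 fold changes of Ctsb, Ctsz, Ctss and Ctso were 0.05, 0.06, −0.07 and 0.11, with adjusted p-values of 0.551 to 0.715.

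Of 4 aspartic and serine cathepsins, which stefins do not inhibit, 4 were tested and 0 had an adjusted p under 0.05. Ctsg, a serine protease of primary granules, was 1.72 ± 0.261 TPM in WT and 2.43 ± 0.422 TPM in LRP5-null libraries (SD, n = 3, log2 fold change 0.33, adjusted p = 0.163). Ctsd and Ctsa had log2 fold changes of −0.13 and 0.13 (adjusted p = 0.434 for each). Of 20 serpins and other protease inhibitors, 9 were tested and 1 was called, against 0.532% of all genes. Itih5, a heavy chain of the inter-alpha-trypsin inhibitor family, was 11.2, 9.81 and 10.9 TPM in WT and 16.5, 18.0 and 19.4 TPM in LRP5-null libraries, and rose in LRP5-null libraries (log2 fold change 0.70, standard error 0.09, adjusted p = 0.0357). Its call was lost with any library other than WT replicate 3 left out (log2 fold change 0.65 to 0.76, adjusted p = 0.0749 to 0.168), with the replicate block (adjusted p = 0.108) and with the ribosomal covariate (adjusted p = 0.0818). Wfdc17, a small protein with a whey acidic domain, was 234 ± 6.43 and 183 ± 9.07 TPM (SD, n = 3, log2 fold change −0.35, adjusted p = 0.0668). Cast, which encodes the calpain inhibitor calpastatin, had a log2 fold change of −0.20 (adjusted p = 0.199).

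Genes whose pattern over the 6 libraries was most like that of the summed stefin A level were sought among 5218 genes that averaged 10 TPM or more. They were Ppp1r42 (Pearson r = 0.997), Yipf4 (0.996), Gm12696 (0.995), Rgs18 (0.992) and Yme1l1 (0.992), picked as the highest of all, so these r are a description, and all genes share the same 6 libraries. Rgs18, a regulator of G protein signaling in blood cells, was 210 TPM in WT replicate 1, 188 in WT replicate 2, 134 in WT replicate 3 and 130 to 141 TPM in LRP5-null libraries. Ppp1r42 was 46.5, 37.4 and 22.3 TPM in WT and 19.5 to 22.1 TPM in LRP5-null libraries. In both genes WT replicate 3 was far below the other WT libraries.

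The 100 bases before the RefSeq start sites (GRCm38.p6) of the stefin A copies were also searched, after placing each by its letters on NCBIM37, for 6 of 7 members that had an entry. Those of the 2 most abundant copies and of Stfa3 are shown, 5′ to 3′ on the strand of the gene, with the letters TTTAAA in capitals. They lie at chr16:36156797-36156896 (plus strand, Stfa2l1), chr16:36184198-36184297 (plus strand, Gm5483) and chr16:36455479-36455578 (minus strand, Stfa3).
Stfa2l1: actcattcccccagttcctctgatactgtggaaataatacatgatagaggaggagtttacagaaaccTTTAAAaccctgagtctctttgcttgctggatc
Gm5483: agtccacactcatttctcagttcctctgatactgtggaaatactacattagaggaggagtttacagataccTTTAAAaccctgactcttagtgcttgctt
Stfa3: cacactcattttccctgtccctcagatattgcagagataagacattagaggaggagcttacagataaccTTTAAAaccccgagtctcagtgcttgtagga

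All 6 windows, which read much alike and so do not count as separate observations, held TTTAAA. These letters, chosen after the windows had been read, were present in 4.4% of 27025 promoters of the same length. TTTAAA began 29 to 33 bases before the start in 5 of the 6 windows and 9 bases before it in BC100530. GAGGAA, a core of sites of the PU.1 family, searched on both strands, was found in Stfa2, Stfa2l1 and Gm5483 and in 9.8% of all promoters. TTGCNNAA, a form of C/EBP sites, was found in BC100530 and in 3.4% of all promoters. No match overlapped another. A match is a run of letters and does not show that a factor binds there.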

How the data were processed

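RNA was measured in bone marrow neutrophils of 3 WT and 3 LRP5-null libraries, grouped by their genotype labels. Per the methods and the submitters' processing notes, the authors aligned reads to mm9 and quantified genes with the DESeq2 pipeline, and they deposited TPM values, scaled to 1 total over 52636 rows. The tool that gave TPM is not given in the sources used here. A second table deposited by the authors summarises the reads, with read counts, percent of reads by class, a ratio for bias of coverage towards either end of transcripts, a score of coverage variation and insert lengths. It lists paired-end reads of 94 bases, where the methods name single-end reads of 75 bases. The labels name a Percoll gradient and an mRNA kit, and the methods for sequencing name a sort on CD11b and Ly6G and a total RNA kit. TPM keeps no depth, so the counting error of single values is unknown.

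log2(TPM + 1), which understates changes of low genes, was compared with limma 3.58.1 (R 4.3.3, mean-variance trend, no covariates) over 9775 genes that averaged 1 TPM or more, with Benjamini-Hochberg adjustment over all of them. No count model was used because TPM holds no counts. Single levels were compared with exact permutation tests. Transcripts, coding identity (Biopython 1.88) and shared stretches came from NCBIM37 and GENCODE M1, and promoters from RefSeq.

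The members and gene lists, and the alternatives tried (pseudocount, filters, scalings, trend, robust shrinkage, replicate block, each library left out, ribosomal covariate, WT replicate 3 alone, GC and length trends removed), were chosen with earlier results of these data known. Named were all members, every cysteine protease tested, from each other list the genes called and the 3 of smallest p, Lrp5 and Lyz2, and the 5 genes most like the summed stefin A level.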

Additional observations from a re-analysis of the deposited data

How the results depend on the processing

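No member was called in the comparison of all 6 libraries, nor in 16 of 18 alternatives. With GC and length trends removed 1 was called, Stfa2l1 at −0.42 (adjusted p = 0.0448), and leaving out 1 library gave 0 to 5, with 5 only without WT replicate 3. The count of cysteine proteases called went from 0 to 2 (Ctsc and Ctsl) with GC and length trends removed, and was 0 to 2 with a library left out, 2 only without WT replicate 3. Over all genes, 52 were called (26 higher, 26 lower), 3 without a filter, 29 with a filter of 5 TPM, 99 (72 higher) when rescaled without mitochondrial and the 20 most abundant genes, 6 with the ribosomal share as a covariate, 6 against WT replicate 3 alone, 377 (141 higher, 236 lower) with GC and length trends removed, and 2 to 1920 with 1 library left out. The cause was not tested.

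Same-numbered libraries had correlations of 0.23, −0.0075 and 0.13 of their deviations from the group means, and not every library correlated best with its own number, so the numbers were not taken to pair the samples. With the replicate block 4 genes were called, none of them a member, and Itih5 lost its call, as it did in 9 of 18 alternatives (adjusted p 0.00899 to 0.168 over all of them). Directions turned in 20 of 549 values. With the ribosomal covariate Stfa1 was 0.058, Gm5416 0.19, Ctsz −0.013 and Ctsb −0.032. Against WT replicate 3 alone Stfa1 was 0.18, Cst3 −0.0089, Gm5416 0.32, Ctss 0.015, Ctsz −0.0425, Ctsb −0.0645, Ctsa −0.040 and Rgs18 0.023. With GC and length trends removed Cst3 was −0.035 and Ctsz −0.0502. Stfa3 was −0.032 with median-ratio scaling, and −0.10 (without WT replicate 3) to 0.069 with 1 library left out, also negative without LRP5-null replicate 1. Gm5416 was −0.28 to 0.051 with 1 library left out, positive without WT replicate 2. Ctsh was 0.030 with quantile normalization and 0.013 when rescaled. Lyz2 kept its direction throughout and lost its call without a filter (adjusted p = 0.123).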
